A study of Sus scrofa with 8 samples.

Results

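The genes of branched-chain amino acid degradation were followed through 4 stages of pig (Sus scrofa) cells on the way from pluripotent stem cells to lung progenitor organoids. Members were all entries of the deposited expression table that its pathway column assigns to valine, leucine and isoleucine degradation, with the cholesterol-pathway synthase HMGCS1 left out. This gave 48 genes of 25578 in the table, and 44 of the 48 passed the filter on low counts. The groups were pluripotent stem cells (PSC), definitive endoderm (DE, the embryonic layer from which gut, liver and lung arise), anterior foregut endoderm (AFE, the front part of the gut tube) and lung progenitor organoids (LPO). Each group had 2 libraries of messenger RNA. The column headers of the deposited values name the PSC libraries EPSC, an abbreviation that the sample titles do not spell out. The labels give no genotype, line or treatment beyond the stage names, and do not state whether libraries within a stage derive from different cultures. The p-values then reflect the spread of these samples alone, and that spread may be technical.

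Leucine, isoleucine and valine are degraded in mitochondria. Aminotransferases first turn each into a ketoacid, and a dehydrogenase complex then commits all of them by oxidative decarboxylation. After that the carbon skeletons part: leucine ends in acetyl-CoA and acetoacetate, isoleucine in acetyl-CoA and propionyl-CoA, and valine in propionyl-CoA by way of free 3-hydroxyisobutyrate. Several of the later enzymes also serve fatty acid oxidation. Outside the liver the aminotransferase step is prominent, because liver itself has little of it.

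Levels are deposited counts per 1e6 counts after TMM scaling between libraries (CPM), given for both libraries of a stage in replicate order. Differences are log2 changes from edgeR's quasi-likelihood test with their standard errors (SE), and a gene is said to be called, to have risen or to have fallen when its Benjamini-Hochberg adjusted p over 19346 tested genes was under 0.05. Neighbouring comparisons share the libraries of a stage, so their values are set side by side only. With 2 libraries on each side, the smallest p an exact permutation test can reach is 0.333. Where levels of different genes are compared, the authors' FPKM is used, which takes transcript length into account.

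Library totals were 42251431 and 36004372 counts in PSC and 61748702 to 67566269 in the other stages, and about 4 counts stood for 1 read pair. The stage labels were checked against marker genes. The pluripotency factor POU5F1 was at 4453 and 5156 CPM in PSC, at 390.5 and 383 CPM in DE and at most 1.03 CPM in AFE and LPO, and the endoderm factor SOX17 was at 251 and 228 CPM in DE and at most 16.5 CPM elsewhere. The lung and thyroid factor NKX2-1 was at 0 in PSC and DE, at 20.2 and 19.5 CPM in AFE and at 33.7 and 34.2 CPM in LPO, while the surfactant gene SFTPC stayed at or under 0.441 CPM in all 8 libraries. Markers of other cell types were present as well. The summed level of 8 mesenchyme markers was 9.40 and 9.24 CPM in PSC, 268 and 123 in DE and 354 and 359 in AFE, against 8554 and 8693 CPM in LPO. For 5 heart and skeletal muscle markers the sum was 239.8 and 253 CPM in AFE. It was 36.9 and 41.0 in DE and at most 11.2 in PSC and LPO. Between DE and AFE 2 of the 5 rose (17.9% of all tested genes) and 2 fell (17.4%). Their median log2 change was -1.65. In AFE 10 of 44 tested members, among them ACSF3, BCAT2, ECHS1 and HADHA, had their highest mean. The part of the muscle markers in the levels of those members was not tested. Of 4 neural markers, PAX6 and SOX1 were at 0 counts in PSC, DE and AFE, which left NES and TUBB3 there. The sum of the 4 was 604 and 570 CPM in PSC and 424 and 326 in DE. In AFE it was 271 and 268, and in LPO, where none was at 0, the sum was 614 and 611. That of 9 liver markers was 13724 and 13471 CPM in DE, nearly all of it the lipoprotein gene APOA1, against at most 298 CPM in the other stages, and ALB stayed at or under 0.680 CPM throughout. In such bulk samples, fewer cells of a type and less RNA per cell cannot be told apart.

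Most of the pathway was highest in pluripotent cells and lowest in organoids. Together the 48 members held 0.505% and 0.523% of all counts in PSC, 0.321% and 0.320% in DE and 0.317% and 0.313% in AFE. In LPO the share was 0.236% and 0.238%. The share was thus highest in PSC and lowest in LPO with no overlap between those stages, and DE and AFE lay close together between them. Of 44 tested members, 29 had their highest mean in PSC, 10 in AFE, 4 in DE and 1 in LPO, and 31 had their lowest mean in LPO. Over all tested genes, 26.5% were highest in PSC and 28.4% lowest in LPO. Among the 4 stages 43 of 44 members differed by the F test, where 79.2% of all tested genes did. Along the 3 steps, 24 members fell in 1 or more and rose in none, against 18.5% of all tested genes. Another 18 both rose and fell, a share of 40.9% near the 33.1% of all tested genes. In the main fit the propionate enzyme MMUT was the 1 member that rose without falling (25.9% of all genes), and the amino acid oxidase IL4I1 the 1 called at no step (22.5%). Some other settings called MMUT lower at the first step, as given below.

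**Figure D1:**
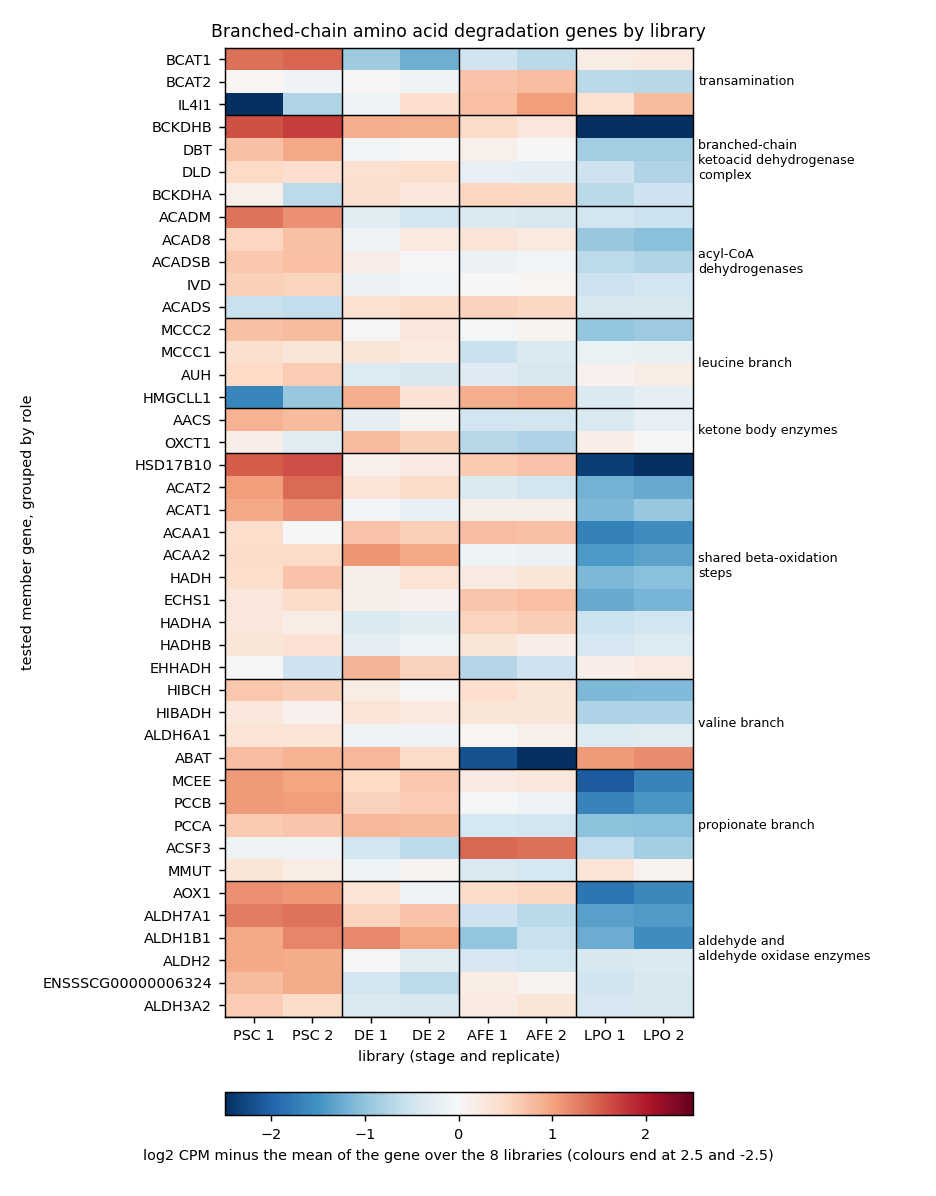
Level of 43 of the 44 tested members in each library, as log2 CPM minus the mean of that gene over the 8 libraries, with rows grouped by role and red above, blue below that mean. Red fills most PSC columns and blue most LPO columns. In LPO against PSC the log2 change was positive for ABAT, ACADS, EHHADH, HMGCLL1, IL4I1 and OXCT1, and of these only HMGCLL1 and IL4I1 were called.

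From PSC to DE, 28 of 44 tested members fell and 6 rose, against 23.0% and 30.8% of all tested genes. The median log2 change of the members was -0.48, beside 0.08 over all tested genes. Falls were mostly modest: 6 members fell by 2-fold or more, close to the 11.6% of all genes that did. In 30 members both DE libraries lay below both PSC libraries (32.7% of all genes) and in 9 above (40.0%). From DE to AFE the pathway split, with 14 members lower (17.4% of all genes), 9 higher (17.9%) and 21 not called, and a median of 0.06 beside 0.00. Falls of 2-fold or more were called in 7 (8.35%). AFE lay below DE without overlap in 17 members (33.4%) and above in 22 (35.6%). From AFE to LPO 33 members fell (29.6% of all genes) and 7 rose (30.2%), with a median of -0.86 beside 0.09. Here 19 fell by 2-fold or more, against 20.6%. LPO lay below AFE without overlap in 34 (39.5%) and above in 9 (44.9%). Over the whole course, LPO against PSC, 36 of 44 fell (28.8% of all genes) and 2 rose (41.5%). Of the 44, 27 fell by 2-fold or more (22.0%). The median log2 change was -1.32 for the members and 0.49 for all tested genes. LPO lay below PSC without overlap in 36 (34.7%) and above in 5 (51.5%).

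The size of the last step depends on the scaling. On the authors' FPKM (limma, log2 with 1 added), which carries no TMM factor, 23 members fell and 10 rose from AFE to LPO, and 33 fell and 7 rose from PSC to LPO. The medians of the members were then -0.32 and -0.88, with all tested genes at 0.16 and 0.23. The calls from AFE to LPO that ended on that scale were those of ACADSB, ACAT2, ALDH1B1, ALDH3A2, ALDH6A1, DLD, ENSSSCG00000006324, HADHB, IVD and PCCA, with the sign of ALDH6A1 and DLD turned. From PSC to LPO the falls of ACSF3, AUH and MCCC1 were no longer called on it. Rises gained on that scale were those of AACS (0.62), ALDH2 (0.52) and ACADM (0.37) from AFE to LPO, and of ABAT (0.55), ACADS (0.53), EHHADH (0.59), OXCT1 (0.34) and MMUT (0.31) from PSC to LPO.

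**Figure D2:**
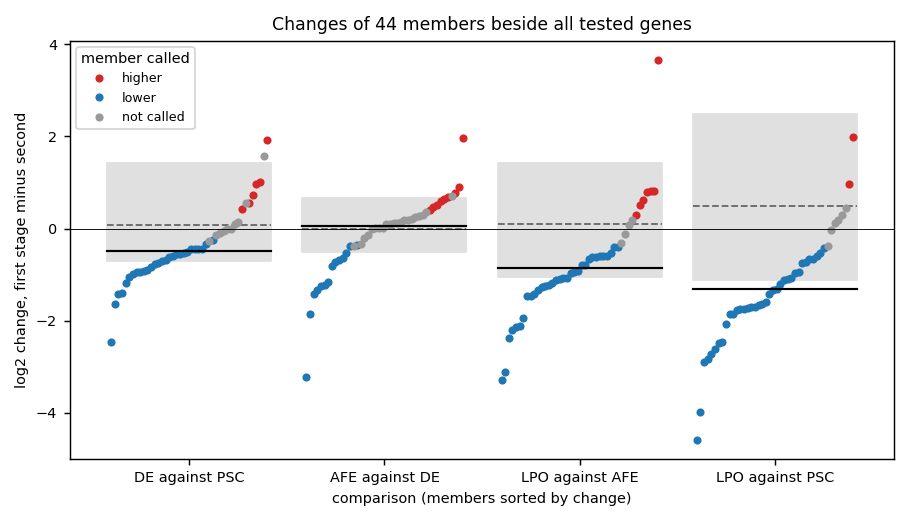
Log2 change of the 44 tested members (points sorted by change, red and blue for members called higher and lower, grey for those not called) beside all 19346 tested genes (grey band from the lower to the upper quartile, dashed line at the median). The solid line is the median of the members, which lies below that of all genes in 3 comparisons and near 0 in AFE against DE.

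The aminotransferases BCAT1 and BCAT2 catalyse the same reversible first reaction, BCAT1 in the cytosol and BCAT2 in mitochondria. They followed different courses. BCAT1 (chromosome 5, 48846020 to 48925626; coordinates are as deposited, with the build unstated) measured 281 and 296 CPM in PSC, 58.7 and 46.3 in DE, 76.8 and 67.9 in AFE, then 123 and 127 in LPO. It was high in PSC, lowest in DE, and intermediate in LPO, with no overlap between any neighbouring stages. It fell 5.49-fold from PSC to DE (log2 change -2.46, SE 0.124, adjusted p = 2.6e-06) and rose 1.73-fold from AFE to LPO (adjusted p = 0.000581). The smaller rise from DE to AFE (log2 change 0.46, adjusted p = 0.0186) lost its call without AFE replicate 1 (0.37) or DE replicate 2 (0.29). BCAT2 (chromosome 6, 54107684 to 54142790) measured 100.4 and 91.2 CPM in PSC, 99.9 and 90.4 in DE, 160.0 and 167 in AFE, then 60.8 and 60.6 in LPO. The PSC and DE libraries overlapped, both AFE libraries stood above them and both LPO libraries below. BCAT2 rose 1.72-fold from DE to AFE (log2 change 0.78, SE 0.0829, adjusted p = 0.000298) and fell 2.69-fold from AFE to LPO (adjusted p = 3.3e-06). Per transcript length, the ratio of BCAT1 to BCAT2 FPKM was 1.23 and 1.42 in PSC, 0.258 and 0.225 in DE, 0.210 and 0.179 in AFE, then 0.889 and 0.922 in LPO. BCAT1 was thus the more abundant of the pair in both PSC libraries, and BCAT2 in the other 6. IL4I1, a secreted L-amino acid oxidase that the table also files under this pathway, stayed between 0.174 and 2.07 CPM, and its rise from PSC to LPO (log2 change 1.99, adjusted p = 0.0260) lost its call without LPO replicate 1 (2.13), LPO replicate 2 (1.71) or PSC replicate 1 (1.35).

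The branched-chain ketoacid dehydrogenase complex is built of E1 alpha (BCKDHA) and beta (BCKDHB) chains, the E2 core DBT and the E3 subunit DLD, which is shared with the pyruvate and oxoglutarate complexes. Its subunits diverged in the organoids, where BCKDHB was far lower than at any other stage and its partner BCKDHA was not. BCKDHB (chromosome 1, 85755743 to 86017650) measured 63.3 and 69.8 CPM in PSC, 39.6 and 39.2 in DE, 28.8 and 25.6 in AFE, then 2.96 and 2.61 in LPO. Every stage lay below the one before, without overlap. It fell 9.78-fold from AFE to LPO (log2 change -3.29, SE 0.124, adjusted p = 4.9e-07) and 23.9-fold from PSC to LPO (log2 change -4.58, SE 0.130, adjusted p = 7.2e-08), the largest fall of any tested member in both comparisons. Its smaller fall from DE to AFE (log2 change -0.53, adjusted p = 0.00714) lost its call without AFE replicate 2 (-0.45).

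BCKDHA (chromosome 6, 49390503 to 49398743) measured 50.5 and 29.5 CPM in PSC, 60.9 and 56.2 in DE, 67.7 and 66.4 in AFE, then 29.2 and 32.4 in LPO. The PSC libraries stood far apart and one of them lay within the range of LPO, so PSC and LPO overlapped. From AFE to LPO it fell 2.18-fold (log2 change -1.12, SE 0.217, adjusted p = 0.00250), and in DE and LPO against PSC it was not called (log2 change 0.55, adjusted p = 0.0657, and -0.38, adjusted p = 0.149). LPO was called lower than PSC with the DESeq2 Wald test (-0.49) and with median centring (-1.15). With counts divided by 4, BCKDHA was called higher in DE than in PSC (0.52). Without PSC replicate 1 it was called higher in DE (0.99), and without PSC replicate 2 lower in LPO than in PSC (-0.72). The ratio of BCKDHA to BCKDHB FPKM was 0.607 and 0.322 in PSC, 1.17 and 1.09 in DE, 1.79 and 1.97 in AFE, then 7.53 and 9.51 in LPO. It lay below 1 in PSC, slightly above 1 in DE, and highest in LPO, with no overlap between stages.

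DBT (chromosome 4, 117884732 to 117936612) measured 47.9 and 56.2 CPM in PSC, 27.4 and 27.7 in DE, 31.2 and 29.1 in AFE, then 15.8 and 15.8 in LPO, falling 1.89-fold at the first step (adjusted p = 0.000210) and 1.91-fold at the last (adjusted p = 0.000150). DLD (chromosome 9, 107642095 to 107673583) measured 122 and 115 CPM in PSC, 114 and 117 in DE, 74.8 and 73.2 in AFE, then 60.5 and 51.1 in LPO and fell 1.56-fold from DE to AFE (adjusted p = 0.00148) and 2.13-fold over the whole course (adjusted p = 1.9e-05). DLD overlaps the laminin gene LAMB1 on the opposite strand, which holds 378% of its counts. The libraries were stranded by protocol, but whether counting used the strand is not stated, so the DLD values are uncertain. The complex is switched off by the kinase BCKDK and on by the phosphatase PPM1K, neither of which is among the 48. BCKDK measured 225 and 189 CPM in PSC, 245 and 212 in DE, 241 and 236 in AFE, then 86.8 and 93.1 in LPO, flat over the first 3 stages and 2.65-fold lower in LPO than in AFE (adjusted p = 1.2e-05). PPM1K measured 58.5 and 68.4 CPM in PSC, 15.6 and 18.3 in DE, 12.8 and 12.3 in AFE, then 31.0 and 28.0 in LPO. It was highest in PSC, fell 3.74-fold to DE (adjusted p = 1.1e-05), and rose 2.35-fold from AFE to LPO (adjusted p = 7.9e-05), a course with the same signs as that of BCAT1 at the first and last steps.

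**Figure D3:**
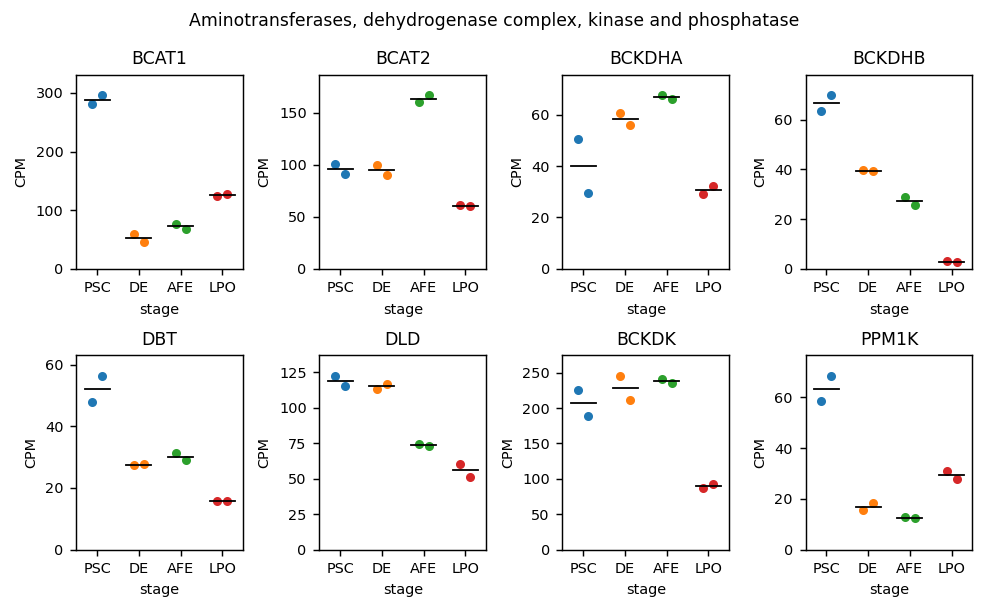
CPM of the aminotransferases, the 4 subunits of the dehydrogenase complex and its kinase and phosphatase by stage, with a point for each library and a bar at the mean of the 2 libraries. BCKDHB descends to under 3 CPM in LPO, whereas BCAT1 and PPM1K dip in DE and AFE and are higher again in LPO.

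After the complex, each branch has an acyl-CoA dehydrogenase of its own: IVD for leucine, ACADSB for isoleucine and ACAD8 for valine. All of them fell from PSC to DE and again from AFE to LPO, and were not called between DE and AFE. ACAD8 (chromosome 9, 60807486 to 60828389) measured 42.8 and 48.9 CPM in PSC, 27.6 and 34.7 in DE, 36.7 and 34.7 in AFE, then 15.3 and 14.3 in LPO, and every other library stood above both LPO libraries. It fell 2.41-fold from AFE to LPO (log2 change -1.27, SE 0.137, adjusted p = 8.9e-05). ACADSB (chromosome 14, 132563309 to 132626841) measured 116 and 122 CPM in PSC, 81.5 and 72.6 in DE, 65.2 and 69.2 in AFE, then 45.8 and 43.0 in LPO and fell 2.68-fold from PSC to LPO (adjusted p = 2.9e-06). IVD (chromosome 1, 130893984 to 130910586) measured 65.5 and 64.1 CPM in PSC, 39.4 and 41.3 in DE, 43.7 and 44.7 in AFE, then 30.2 and 31.3 in LPO and fell 2.11-fold over the same interval (adjusted p = 8.6e-06). The medium-chain and short-chain enzymes ACADM and ACADS, which act mainly on fatty acids, went opposite ways at the first step. ACADM (chromosome 6, 137541381 to 137595108) measured 183 and 159 CPM in PSC, 58.6 and 51.7 in DE, 56.0 and 54.2 in AFE, then 52.5 and 49.6 in LPO. It fell 3.10-fold from PSC to DE (log2 change -1.63, SE 0.101, adjusted p = 6.8e-06) and was not called at either later step in the main fit. From AFE to LPO it was called lower with median centring (-0.41) and higher on log2 FPKM with 1 added (0.37). ACADS measured 35.0 and 33.7 CPM in PSC, 67.1 and 71.8 in DE, 76.9 and 73.6 in AFE, then 38.8 and 39.1 in LPO, rising 2.02-fold from PSC to DE (adjusted p = 2.5e-05) and falling 1.93-fold from AFE to LPO (adjusted p = 2.3e-05). These dehydrogenases pass electrons to the flavoprotein ETFA and ETFB and its oxidoreductase ETFDH, 3 genes outside the membership that all fell from PSC to LPO (log2 change -2.10, -1.08 and -1.59). ETFB alone rose from PSC to DE (log2 change 1.45, adjusted p = 3.5e-06).

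In the leucine branch, methylcrotonyl-CoA carboxylase has a biotin-carrying alpha chain (MCCC1) and a beta chain (MCCC2). AUH then hydrates its product. MCCC2 (chromosome 16, 47917291 to 47996534) measured 55.9 and 58.4 CPM in PSC, 34.7 and 41.0 in DE, 33.2 and 35.7 in AFE, then 17.2 and 18.0 in LPO and fell 3.25-fold from PSC to LPO (log2 change -1.70, SE 0.111, adjusted p = 3.6e-06). MCCC1 (chromosome 13, 120915730 to 121070365) measured 53.5 and 50.0 CPM in PSC, 49.5 and 47.6 in DE, 27.3 and 31.2 in AFE, then 36.0 and 35.5 in LPO. It was not called between PSC and DE (log2 change -0.09, adjusted p = 0.473), although both DE libraries lay below both PSC libraries. With the DESeq2 Wald test (-0.25) or median centring (-0.51) DE was called lower. MCCC1 fell 1.66-fold from DE to AFE (adjusted p = 0.000955) and did not fall further in LPO, where the log2 change from AFE was 0.29 (adjusted p = 0.0337). That last call ended with no filter (0.29), and without AFE replicate 1, LPO replicate 1 or LPO replicate 2 (0.20, 0.27 and 0.28). The value was -0.0042 with median centring, a setting that left the median of all tested genes at -0.15. The ratio of MCCC1 to MCCC2 FPKM was 0.662 and 0.592 in PSC, 0.988 and 0.804 in DE, 0.569 and 0.606 in AFE, then 1.45 and 1.37 in LPO, above 1 only in the LPO libraries.

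AUH measured 27.9 and 30.5 CPM in PSC, 15.5 and 14.9 in DE, 15.8 and 14.9 in AFE, then 21.2 and 22.4 in LPO, lowest in DE and AFE and partly higher again in LPO (log2 change from AFE 0.51, adjusted p = 0.00506), a call lost without LPO replicate 2 (0.45). HMGCLL1, which acts outside mitochondria, ran the other way with 2.23 and 3.62 CPM in PSC, 13.1 and 8.90 in DE, 13.1 and 13.6 in AFE, then 5.45 and 5.97 in LPO. It rose 3.77-fold from PSC to DE (adjusted p = 0.000783) and fell 2.34-fold from AFE to LPO (adjusted p = 0.00521), and its net rise (log2 change 0.97, adjusted p = 0.0165) lost its call without LPO replicate 2 (0.85) or PSC replicate 1 (0.66).

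Ketone body enzymes make or use the acetoacetate that leucine yields. OXCT1, which activates acetoacetate for oxidation, measured 23.6 and 17.4 CPM in PSC, 36.3 and 31.6 in DE, 12.9 and 12.3 in AFE, then 23.4 and 20.9 in LPO. It was highest in DE and lowest in AFE, falling 2.70-fold between them (adjusted p = 0.000451), and rose 1.76-fold to LPO (adjusted p = 0.00316). AACS, which activates acetoacetate in the cytosol for lipid synthesis, measured 93.1 and 88.6 CPM in PSC, 43.2 and 53.5 in DE, 36.7 and 37.3 in AFE, then 39.3 and 44.3 in LPO and fell 1.88-fold from PSC to DE (adjusted p = 0.000356). Its further fall to AFE (log2 change -0.39, adjusted p = 0.0374) lost its call without AFE replicate 1, AFE replicate 2, DE replicate 2 or LPO replicate 2 (-0.38, -0.40, -0.24 and -0.40).

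The hydratases, dehydrogenases and thiolases that follow are shared with fatty acid oxidation and include the most abundant members. By FPKM, ACAT2, HSD17B10, ACAT1 and ECHS1 led the 48 in PSC with means of 206, 195, 132 and 132, and HADHA, ECHS1 and ACAT2 led in LPO with 65.0, 58.3 and 50.0. Of 10 tested genes in this group, 9 fell from PSC to LPO and none rose, where 28.8% of all genes fell, and the remaining gene was EHHADH. HSD17B10 (chromosome X, 46218548 to 46220883), the isoleucine-branch dehydrogenase that is also a subunit of mitochondrial RNase P, measured 229 and 247 CPM in PSC, 88.4 and 93.2 in DE, 127 and 133 in AFE, then 15.8 and 14.4 in LPO. PSC was highest and LPO lowest, without overlap, and AFE stood above DE. It fell 2.62-fold from PSC to DE (log2 change -1.39, SE 0.0812, adjusted p = 5.1e-06) and 8.61-fold from AFE to LPO (log2 change -3.11, SE 0.0871, adjusted p = 2.1e-07), with a rise of 0.52 on the log2 scale between (adjusted p = 0.00185).

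The thiolases of acetoacetyl-CoA are ACAT1 in mitochondria, which ends isoleucine breakdown, and ACAT2 in the cytosol, which opens sterol synthesis. ACAT1 (chromosome 9, 36525261 to 36545633) measured 236 and 271 CPM in PSC, 117 and 106 in DE, 136 and 136 in AFE, then 56.2 and 64.2 in LPO and fell 2.27-fold from PSC to DE (adjusted p = 3.2e-05) and 2.26-fold from AFE to LPO (adjusted p = 2.4e-05). ACAT2 (chromosome 1, 7598735 to 7612866) measured 872 and 1118 CPM in PSC, 524 and 587 in DE, 326 and 303 in AFE, then 186 and 177 in LPO and fell at all 3 steps, 5.49-fold in all (log2 change -2.46, SE 0.123, adjusted p = 8.7e-07). It overlaps the chaperonin gene TCP1 on the opposite strand, which holds 65.3% of its counts, and its values are uncertain to that extent. The ratio of ACAT1 to ACAT2 FPKM was 0.680 and 0.608 in PSC, 0.560 and 0.453 in DE, 1.04 and 1.13 in AFE, then 0.757 and 0.913 in LPO, so mitochondrial ACAT1 exceeded ACAT2 in the AFE libraries only.

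The other thiolases, peroxisomal ACAA1 and mitochondrial ACAA2, both rose at the first step in the main fit and fell at the last. ACAA1 (chromosome 13, 22964875 to 23020143) measured 98.5 and 71.8 CPM in PSC, 119 and 109.7 in DE, 124 and 121 in AFE, then 22.4 and 24.5 in LPO and fell 5.22-fold from AFE to LPO (log2 change -2.38, SE 0.148, adjusted p = 4.3e-06). Its rise from PSC to DE (log2 change 0.42, adjusted p = 0.0359) lost its call without any single library other than PSC replicate 1 (0.21 to 0.46) and with DESeq2 (0.26). The call also ended on log2 FPKM with 0.1 or 1 added (0.40 and 0.38). So it did with only the 4 libraries compared (0.40) and with median centring (0.0091). ACAA1 overlaps the adaptor gene MYD88 on the opposite strand, with 20.0% of its counts. ACAA2 (chromosome 1, 99284140 to 99311321) measured 60.3 and 61.3 CPM in PSC, 93.9 and 86.1 in DE, 40.6 and 39.4 in AFE, then 16.3 and 17.2 in LPO, highest in DE, and fell 2.25-fold to AFE (adjusted p = 4.4e-05) and 2.39-fold more to LPO (adjusted p = 7.1e-06).

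The trifunctional protein is made of HADHA and HADHB, whose genes lie head to head on chromosome 3 and overlap by 222 bases, so that their values are uncertain where counting ignored the strand. HADHA (chromosome 3, 112752865 to 112797733) measured 309 and 289 CPM in PSC, 197 and 210.4 in DE, 372 and 385 in AFE, then 175 and 181 in LPO and HADHB (chromosome 3, 112712919 to 112753086) 79.1 and 82.4 CPM in PSC, 53.9 and 58.8 in DE, 78.5 and 71.4 in AFE, then 48.0 and 50.3 in LPO. Both dipped in DE, rose to AFE (1.86-fold, adjusted p = 4.9e-05, and 1.33-fold, adjusted p = 0.00841) and fell to LPO (2.13-fold, adjusted p = 4.1e-06, and 1.53-fold, adjusted p = 0.000480). The rise of HADHB lost its call without AFE replicate 1 (0.34). HADHA FPKM was 3.63 to 5.58 times that of HADHB in the 8 libraries, highest in AFE. The hydratase ECHS1, which serves all branches, measured 293 and 328 CPM in PSC, 263 and 257 in DE, 388 and 401 in AFE, then 99.3 and 107 in LPO. It was highest in AFE, 1.51-fold above DE (adjusted p = 0.000694), and fell 3.81-fold to LPO (adjusted p = 6.4e-07). EHHADH, the peroxisomal bifunctional enzyme, was low at 8.16 and 5.82 CPM in PSC, 15.0 and 12.5 in DE, 5.04 and 5.80 in AFE, then 9.41 and 9.72 in LPO, rising 1.96-fold to DE (adjusted p = 0.00581) and falling 2.53-fold to AFE (adjusted p = 0.00220). The 3-hydroxyacyl-CoA dehydrogenase HADH measured 145 and 175 CPM in PSC, 118 and 136 in DE, 124 and 133 in AFE, then 49.4 and 51.9 in LPO and fell 2.54-fold from AFE to LPO (adjusted p = 2.2e-05). It was lower in DE than in PSC by a log2 change of -0.33 (adjusted p = 0.0356), a call lost without AFE replicate 1, AFE replicate 2, DE replicate 1 or PSC replicate 2 (-0.33 to -0.19).

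Valine breakdown frees 3-hydroxyisobutyrate through the hydrolase HIBCH, oxidises it with HIBADH and ends with the semialdehyde dehydrogenase ALDH6A1. All of them fell from AFE to LPO, and HIBCH and ALDH6A1 also fell from PSC to DE (log2 change -0.54 and -0.44). HIBCH (chromosome 15, 94794126 to 94941266) measured 55.9 and 53.5 CPM in PSC, 39.8 and 35.5 in DE, 46.5 and 43.1 in AFE, then 16.0 and 16.3 in LPO and fell 2.77-fold from AFE to LPO (log2 change -1.47, SE 0.0995, adjusted p = 6.7e-06). HIBADH (chromosome 18, 44985425 to 45208347) measured 98.1 and 87.2 CPM in PSC, 102 and 96.2 in DE, 100.5 and 100.2 in AFE, then 47.9 and 48.0 in LPO, with PSC, DE and AFE within one narrow range, and fell 2.09-fold to LPO (adjusted p = 1.4e-05). ALDH6A1 measured 41.6 and 40.9 CPM in PSC, 29.9 and 30.7 in DE, 33.8 and 35.9 in AFE, then 25.9 and 26.6 in LPO, and its changes were under 2-fold in every comparison.

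ABAT, the aminotransferase of gamma-aminobutyrate that also handles methylmalonate semialdehyde, had the largest single change of the tested members between neighbouring stages, its rise from AFE to LPO. Its level was under the 5 FPKM set for naming, so that it was chosen after its values were seen. ABAT (chromosome 3, 33908971 to 34015469) measured 18.9 and 19.9 CPM in PSC, 19.6 and 15.3 in DE, 2.42 and 1.35 in AFE, then 22.9 and 25.0 in LPO. PSC, DE and LPO lay between 15.3 and 25.0 CPM, while both AFE libraries lay below 2.5 CPM. It fell 9.27-fold from DE to AFE (log2 change -3.21, SE 0.269, adjusted p = 8.7e-05) and rose 12.7-fold from AFE to LPO (log2 change 3.67, SE 0.272, adjusted p = 1.1e-05). LPO against PSC was not called (log2 change 0.30, adjusted p = 0.280). With 1 added to FPKM these swings came to -1.43 and 2.12. AGXT2, a kidney and liver aminotransferase, was at 0 counts in 6 libraries and at most 0.245 CPM in AFE, and was not tested.

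Propionyl-CoA from valine and isoleucine is carboxylated by PCCA and PCCB, epimerised by MCEE and rearranged to succinyl-CoA by MMUT with cobalamin. Over the whole course PCCA, PCCB and MCEE fell, and MMUT was not called. PCCB (chromosome 13, 77217428 to 77316568) measured 71.8 and 70.8 CPM in PSC, 51.1 and 53.5 in DE, 33.1 and 31.7 in AFE, then 10.8 and 12.6 in LPO, each stage below the one before without overlap, and fell 6.09-fold from PSC to LPO (log2 change -2.61, SE 0.107, adjusted p = 3.1e-07). PCCA (chromosome 11, 68920929 to 69286424) measured 62.1 and 64.3 CPM in PSC, 70.3 and 68.3 in DE, 29.2 and 28.9 in AFE, then 19.5 and 19.1 in LPO. It was not called between PSC and DE in the main fit, and then fell 2.39-fold to AFE (adjusted p = 2.4e-05) and 1.51-fold to LPO (adjusted p = 0.000341). The ratio of PCCA to PCCB FPKM was 1.11 and 1.16 in PSC, 1.76 and 1.64 in DE, 1.13 and 1.17 in AFE, then 2.31 and 1.94 in LPO, above 1 in all 8 libraries.

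MCEE (chromosome 1, 143993394 to 144024879) measured 46.6 and 44.2 CPM in PSC, 31.3 and 35.6 in DE, 26.1 and 27.1 in AFE, then 5.29 and 6.99 in LPO and fell 4.33-fold from AFE to LPO (log2 change -2.12, SE 0.152, adjusted p = 9.2e-06). Its earlier fall from PSC to DE (log2 change -0.44, adjusted p = 0.0333) lost its call without any single PSC or AFE library or DE replicate 1 (-0.48 to -0.35). MCEE overlaps MPHOSPH10 on the opposite strand, which holds 223% of its counts, so its values are uncertain. MMUT (chromosome 7, 43597246 to 43624671) measured 16.4 and 15.3 CPM in PSC, 12.2 and 14.0 in DE, 10.2 and 9.82 in AFE, then 16.6 and 14.2 in LPO. The PSC and LPO libraries overlapped and AFE was lowest. LPO against PSC was not called (log2 change -0.04, adjusted p = 0.839). On log2 FPKM it was called higher, as given above, and with median centring lower (-0.81). DE against PSC was not called in the main fit (-0.28). It was called lower with DESeq2 size factors (-0.44), the DESeq2 Wald test (-0.44) and median centring (-0.69). AFE against DE was called lower on log2 FPKM with 0.1 added (-0.42). MMUT rose 1.54-fold from AFE to LPO (adjusted p = 0.00712), a call lost without LPO replicate 1 (0.49) or with median centring (0.33). ACSF3, which activates malonate and methylmalonate, peaked in AFE with 13.3 and 13.6 CPM in PSC, 10.5 and 9.23 in DE, 39.6 and 37.9 in AFE, then 9.56 and 8.13 in LPO. It rose 3.93-fold from DE to AFE (log2 change 1.97, SE 0.137, adjusted p = 3.5e-05) and fell 4.38-fold to LPO (adjusted p = 5.2e-06).

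**Figure D4:**
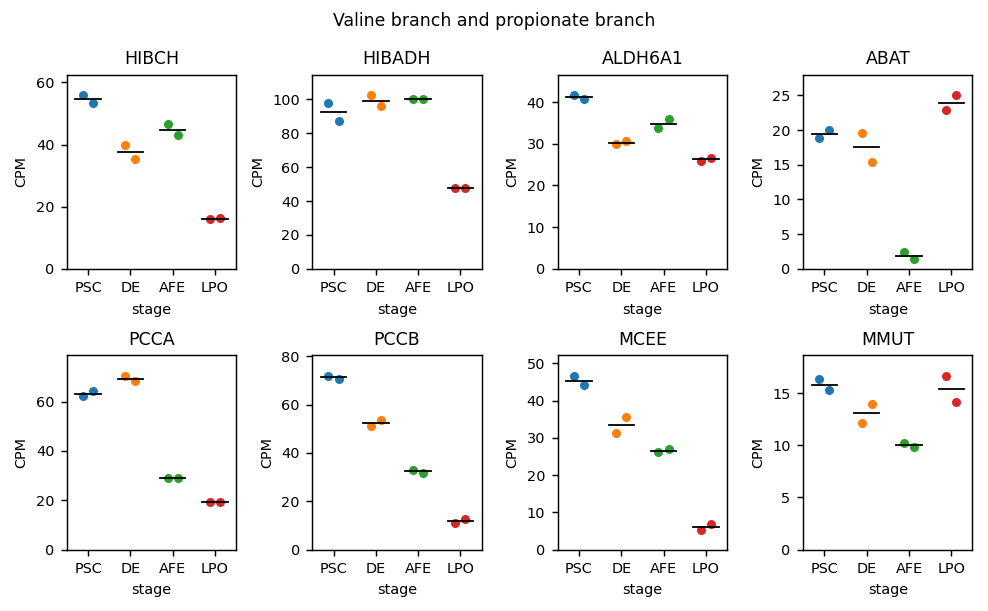
CPM of the valine-branch genes (HIBCH, HIBADH, ALDH6A1, ABAT) and propionate-branch genes (PCCA, PCCB, MCEE, MMUT) by stage, with a point for each library and a bar at the mean of the 2 libraries. ABAT drops in AFE alone, PCCB and MCEE descend stage by stage, and the MMUT libraries of LPO and PSC overlap.

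The genes that load cofactors onto these enzymes are outside the membership. Of 8 cobalamin genes, 6 fell and 2 rose from PSC to LPO (28.8% and 41.5% of all genes). CD320, the cellular receptor for transcobalamin, fell 19.3-fold (adjusted p = 6.1e-07) and MMACHC, which processes cobalamin in the cytosol, 7.69-fold (adjusted p = 1.8e-06). The genes that rose were the carrier TCN2 and the lysosomal exporter LMBRD1 (log2 change 0.68 and 0.55). Of 5 genes for biotin and lipoate supply with an entry, 4 fell, among them the biotin ligase HLCS (log2 change -1.12, adjusted p = 5.7e-05) and the vitamin transporter SLC5A6 (log2 change -2.19, adjusted p = 6.1e-07).

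Aldehyde dehydrogenases are filed under the pathway for oxidising its aldehydes and act on many other substrates too. All 6 tested genes of this group fell from PSC to LPO (28.8% of all genes). ALDH7A1 (chromosome 2, 129662969 to 129709705), best known for lysine breakdown, measured 319 and 332 CPM in PSC, 190.2 and 211 in DE, 90.3 and 81.2 in AFE, then 50.5 and 48.6 in LPO and fell at every step, 6.56-fold in all (log2 change -2.71, SE 0.0879, adjusted p = 1.2e-07). ALDH1B1 (chromosome 1, 239109809 to 239114730) measured 19.6 and 23.5 CPM in PSC, 23.1 and 19.8 in DE, 5.08 and 6.85 in AFE, then 4.28 and 3.46 in LPO, with PSC and DE overlapping and a 3.59-fold fall to AFE (log2 change -1.85, SE 0.208, adjusted p = 0.000386). ALDH2 (chromosome 14, 39896565 to 39933124), the main acetaldehyde dehydrogenase, measured 259 and 257 CPM in PSC, 137 and 112 in DE, 100.1 and 96.2 in AFE, then 102 and 104 in LPO and fell 2.06-fold from PSC to DE (adjusted p = 5.4e-05). LPO against AFE was not called (log2 change 0.07, adjusted p = 0.571), but was called higher with the 5 FPKM filter (0.34) and on log2 FPKM. An aldehyde dehydrogenase entry without a symbol (ENSSSCG00000006324, chromosome 4, 85029951 to 85057650) measured 232 and 255 CPM in PSC, 97.7 and 84.6 in DE, 152 and 143 in AFE, then 95.0 and 101 in LPO, a 2.67-fold fall from PSC to DE (adjusted p = 1.0e-05) followed by a 1.62-fold rise to AFE (adjusted p = 0.000976). Fatty aldehyde dehydrogenase ALDH3A2 had the same signs at each step. The aldehyde oxidase AOX1 fell 7.07-fold from PSC to LPO (adjusted p = 3.6e-06), and an entry without a symbol that the table describes as aldehyde oxidase 2 (ENSSSCG00000016093) was at 0 counts in 7 libraries and not tested. The last fall of ALDH1B1 (log2 change -0.62, adjusted p = 0.0320) lost its call without AFE replicate 2 (-0.39), DE replicate 2 (-0.59) or LPO replicate 2 (-0.50).

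Branched-chain amino acids enter cells through the L-system, a light chain such as SLC7A5 or SLC7A8 bound to the heavy chain SLC3A2, and enter mitochondria through SLC25A44. SLC3A2 measured 681 and 582 CPM in PSC, 1715 and 2037 in DE, 429 and 456 in AFE, then 104 and 109 in LPO. It was highest in DE and lowest in LPO, rising 2.97-fold from PSC to DE (adjusted p = 9.4e-06) and falling 4.24-fold to AFE (adjusted p = 9.5e-06) and 4.17-fold to LPO (adjusted p = 1.7e-06). SLC7A5 measured 69.3 and 58.9 CPM in PSC, 91.4 and 123 in DE, 187 and 202 in AFE, then 39.1 and 42.6 in LPO, highest in AFE, and fell 4.77-fold to LPO (adjusted p = 6.7e-06). SLC25A44 was low with 1.19 and 1.66 CPM in PSC, 3.75 and 3.45 in DE, 2.02 and 2.27 in AFE, then 5.82 and 4.59 in LPO and, unlike most members, stood higher in LPO than in PSC (log2 change 1.87, SE 0.326, adjusted p = 0.00119). Of 10 transporters with an entry, 7 rose from PSC to DE (30.8% of all genes), a step at which most members fell. SLC7A8 went from 1694 and 1742 CPM in DE to 19.0 and 19.7 in LPO. Among the leucine-sensing genes the sestrins parted: SESN3 rose 28.0-fold from PSC to LPO (adjusted p = 4.1e-08) and SESN1 7.13-fold (adjusted p = 3.4e-06), while SESN2 fell 3.30-fold (adjusted p = 3.4e-06) and the leucyl-tRNA synthetase LARS1 fell 5.87-fold (adjusted p = 7.7e-08).

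Of 9 genes of general mitochondrial content, 8 fell from PSC to DE (23.0% of all genes) and 8 from AFE to LPO (29.6%). In LPO 8 were lower than in PSC (28.8%), with a median log2 change of -1.99. Citrate synthase (CS), the gene not called in LPO against PSC, measured 218 and 234 CPM in PSC, 156 and 154 in DE, 200.2 and 204 in AFE, then 230.1 and 231 in LPO. In LPO against PSC, 28.8% of all tested genes were lower and 41.5% higher, with a median of 0.49. Beside these, the 111 tested oxidative phosphorylation genes, none of them a member, had a median of -2.25 with 91 lower and 12 higher, and 27 citrate cycle genes apart from the members a median of -1.75 with 22 lower and 1 higher. The 19 tested fatty acid degradation genes that are not members had a median of -0.40, with 8 lower and 6 higher. Within the membership, the 17 genes filed under both pathways had a median of -1.59, and the 27 tested others -1.09. Propanoate metabolism also shares 17 genes with the membership. Its 15 tested genes that are not members had a median of 0.73, with 6 lower and 6 higher. The 1324 tested genes with a mitochondrial annotation that are not members had a median of -0.78, with 740 lower and 376 higher. The differences between these lists were not tested. Of 5 regulators ascribed to such genes, 1 rose from PSC to LPO (41.5% of all genes), 0 fell (28.8%) and 4 were not called. The coactivator PPARGC1A rose from 0.546 and 0.238 CPM in PSC to 3.82 and 3.91 in LPO (9.71-fold, adjusted p = 0.000757). Its level in PSC replicate 2 lay under the 0.357 CPM that 12 counts make in that library, so the fold size is uncertain. The nuclear receptor ESRRA, highest in AFE at 55.1 and 58.3 CPM, fell 2.03-fold from AFE to LPO (adjusted p = 5.1e-05) but was not called in LPO against PSC. The mesenchyme marker levels given above rose from PSC to LPO, and the part that they or mitochondrial content had in the falls of the members was not tested.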

How the data were processed

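Polyadenylated RNA of 8 samples (4 stages, 2 each) was purified on oligo(dT) beads and sequenced from both ends after strand-marking library preparation, per the labels' protocols. HISAT2 2.2.1, StringTie 2.1.6, cutadapt 1.9, edgeR and DESeq2 are listed, per the submitters' processing notes, with no role. Neither build nor annotation is stated. The deposited table holds the authors' expected counts per gene (whole numbers, no scaling between libraries) and FPKM computed by the authors.

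Expected counts, used without further rounding, were analysed in R 4.3.3 with edgeR 4.0.16 (filterByExpr, TMM factors 0.901 to 1.27, glmQLFit on all 8 libraries with the stages as groups, glmQLFTest), which was also tested on simulated data. Low counts gather at 4, 8 and 12 (46.4% to 50.7% of values from 1 to 12), so the floor of 3 read pairs is 12 counts, 0.150 to 0.357 CPM, and covers counting error only. Members and lists were chosen with earlier results of these data known. Members given in full are, per role, up to 4 with a called 2-fold change and 5 FPKM in the higher stage, plus both partners of each pair or complex and BCKDK, PPM1K, SLC7A5, SLC3A2 and SLC25A44. All other genes given with values were chosen after their values were seen. Alternatives were DESeq2 1.42.0 size factors and Wald or likelihood ratio test, no filter, 5 FPKM in 2 libraries, limma 3.58.1 on log2 FPKM with 1 or 0.1 added, counts divided by 4, the replicate number as a block, only the libraries compared, and each library left out. Median centring was added after the data were seen. A few members are counted in the totals but not reported here by name. List genes without an entry (SLC7A6, LIPT1, TIMM23, MYOD1 and AFP) were not analysed here. Figures used Python 3.11.15 with matplotlib 3.10.9.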

Additional observations from a re-analysis of the deposited data

How the results depend on the processing

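Over all alternatives the members called lower numbered 24 to 34 (DE against PSC), 11 to 16 (AFE against DE), 23 to 34 (LPO against AFE) and 33 to 40 (LPO against PSC), all within 1.5 times the main count. Of 3144 member values compared, 2990 kept their direction and side of the threshold, 97 lost a call, 44 gained one and 13 turned sign. The few members called higher varied more. With 5 FPKM in 2 libraries 3 rose in DE against PSC and 1 in LPO against PSC. With median centring 3 rose in DE against PSC, 3 in LPO against AFE and 0 in LPO against PSC. In LPO against PSC 6 rose on log2 FPKM with 0.1 added, 7 with 1 added, and 0 with only the 4 libraries compared. Leaving out each library in turn gave 4 to 7 risers in LPO against AFE and 0 to 2 in LPO against PSC. The 4 came without LPO replicate 2, which also gave the 0, and LPO replicate 1 or PSC replicate 1 left 1 in LPO against PSC. Median centring also ended the rises of ACAA1, ACAA2 and OXCT1 in DE against PSC, of AUH, EHHADH and MMUT in LPO against AFE, and of HMGCLL1 and IL4I1 in LPO against PSC. It turned the sign of PCCA (-0.28) and HIBADH (-0.32) in DE against PSC, MCCC1 (-0.0042) in LPO against AFE, and ACADS (-0.59) and OXCT1 (-0.66) in LPO against PSC. On log2 FPKM with 0.1 or 1 added the sign turned in LPO against AFE for ALDH6A1 (0.082 and 0.072), ACADM (0.38 and 0.37) and DLD (0.080 and 0.072), and in LPO against PSC for MMUT (0.36 and 0.31), with ACADM and MMUT called higher on that scale. Scaling moved the median log2 change of all tested genes, which in LPO against PSC was 0.49 in the main fit, -0.24 with median centring and 0.65 on FPKM with 0.1 added. In DE against PSC it went from 0.08 to -0.17 with median centring, and in LPO against AFE from 0.09 to -0.15 with median centring and 0.43 on FPKM with 0.1 added. Deviations of same-numbered libraries correlated between -0.0136 and 0.0078 over the 6 pairs of stages. No shared deviation was thus seen, but values near 0 cannot show whether same-numbered samples were paired. With the replicate block, 28 members fell and 6 rose in DE against PSC, 14 and 9 in AFE against DE, 33 and 6 in LPO against AFE, and 36 and 2 in LPO against PSC, the rise of MCCC1 in LPO against AFE (0.29) being the call that was lost. The cause of these differences was not tested. With 2 libraries a stage and 4 residual degrees of freedom, and with 12 counts at 0.150 to 0.357 CPM, changes of the 4 untested members were not detectable at this depth.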
